A study of Mus musculus with 21 samples.

Results

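Among the genes measured in sorted conventional dendritic cells (cDCs) of mouse spleen and thymus, 9 genes better known from macrophages were followed across all sorted populations, with attention to thymic cDC2. They were the complement C1q chains C1qa, C1qb and C1qc, the colony-stimulating factor 1 receptor gene Csf1r, and Cd68, Adgre1, Vcam1, Hmox1 and Spic, that is 9 of the 37734 genes in the deposited tables. The genes were picked by name with their values in these libraries already known, in particular the gap between the third mature thymic cDC2 library and the first and second, so their levels and differences are given as a description, without a p, and where they are counted against a threshold, nothing is read from the count. Adgre1 was found under its older symbol Emr1 and matched by its gene identifier.

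The RNAseq experiment compared C57BL/6 mice of 6 to 8 weeks that carried no allele or treatment named in the labels. CD11c+ cells were enriched with magnetic beads from digested spleen or thymus and sorted as cDC1 or cDC2, each either immature (CCR7- Esam-) or mature (CCR7+ Esam+), which gave 5 libraries of immature cDC1 from spleen, 4 of immature cDC1 from thymus and 3 of mature cDC1 from thymus, and for cDC2 3 libraries each of immature cells from spleen and of immature and mature cells from thymus. Each library held cells pooled from several mice, so that the spread between libraries is that between pools. Where libraries share a pool label, part of the spread lies within that label. A change in the share of a cell type within a sorted population cannot be told apart from a change in RNA per cell. The sorting description names absence of F4/80, the protein made from Adgre1, among the gates for cDC1, and the gates listed for cDC2 (B220- CD24- CD11b+ CD11c+) hold no F4/80 term. In its flow cytometry, the study defines both the cDC1 and the cDC2 subset as F4/80-. Since the gates listed for the libraries differ on this, whether the sequenced cDC2 were gated on it is unclear. The part of the sort in the Adgre1 levels was not tested.

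C1q is the recognition molecule of the classical complement pathway. It is built from the A, B and C chains in equal numbers, binds antibody complexes and dying cells, and is made largely by tissue macrophages and by some dendritic cells. The receptor encoded by Csf1r passes on the survival signals of CSF1 and IL-34 to monocytes and macrophages, while Spi-C, Vcam-1 and heme oxygenase 1 are features of the red pulp macrophages of the spleen, which break down the heme of aged erythrocytes. In the thymus, macrophages clear thymocytes that die during selection, and cDC2 present antigen to developing T cells next to them.

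Values are normalized read counts, the read count of a gene divided by a size factor of its library, and 1 read was worth between 0.625 and 1.84 of these units. The libraries held 14266867 to 40119669 reads. Splenic cDC1 replicates 4 and 5 carry the same pool label, as replicate 1 does, and differed far less than the other pairs of that group (a chi-square of 2.44 per degree of freedom over the genes, next to 24.99 for the second closest pair), and were summed into 1 sample, which leaves 20 samples. Replicates 3 and 4 of immature thymic cDC1 are labelled 8 and Et8, which was read here as the same pool label. They differed by 92.8 on this measure, the most of any pair of their group, and were kept. Mature thymic cDC2 replicate 3 stood apart from replicates 1 and 2, with 144 and 125 on the same measure beside 26.9 between replicates 1 and 2, while pairs of other groups reached 176. This library carries the pool label 569, and replicates 1 and 2 carry 10 and 11. Mature thymic cDC1 replicate 3 also carries 569, and the labels do not say whether a shared label means the same mice. Because mature thymic cDC2 replicate 3 stood apart, differences between groups that rest on it are given with and without it, and levels per replicate.

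The labels were checked against marker genes. The 10 cDC2 markers, among them Sirpa and Irf4, summed to 64467 to 83456 in immature splenic, 79344 to 83390 in immature thymic and 60410 to 74672 in mature thymic cDC2. In cDC1 the same sums were 4956 to 9124 in immature splenic, 1044 to 1472 in immature thymic and 26912 to 32323 in mature thymic cells. The 9 cDC1 markers were not absent from cDC2. They summed to 65554.5 to 73605.1 in immature thymic cDC2, against 216067 to 251394 in immature thymic cDC1. The 10 maturation markers, among them Ccr7 and Fscn1, summed to 508702 to 677105 in mature thymic cDC2 and 43998 to 58809 in immature thymic cDC2. Of the 10 genes that define tissue macrophages, Vsig4 had no read in any library. In thymic cDC2, Marco stayed at or below 14.9 and Cd5l at or below 8.44, while Fcgr1, Mertk and Siglec1 were all read. The 10 genes together summed to 990 to 1222 in immature splenic, 2324 to 2608 in immature thymic and 410 to 1757 in mature thymic cDC2, against 109 to 141 in immature thymic cDC1. The part that macrophages in the sorted cells may have in the values of the 9 genes was not tested.

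The C1q genes sit side by side on the minus strand of chromosome 4 (GRCm38, GENCODE M21), C1qb at 136880129 to 136886187, C1qc at 136889804 to 136893065 and C1qa at 136895917 to 136898803, with gaps of 3617 and 2852 bases. Their neighbours behaved differently. Ephb2 on the one side had group means of at most 11.1 normalized reads and Epha8 on the other at most 3.20, and Zbtb40, the next gene beyond Epha8, had group means between 341 and 485.

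Promoter sequences of 4 of the 9 genes were in the RefSeq table (GRCm38.p6). Those of C1qb, C1qc and Spic are shown because C1qb and C1qc moved together in these libraries, while Spic did not follow them. Each run is the part before the RefSeq transcription start, on the strand of the gene, which is the minus strand for all of them, at chr4:136886201-136886450 for C1qb, chr4:136893066-136893164 for C1qc and chr10:88683024-88683273 for Spic. Capitals mark the ETS core AGGAAG, which reads CTTCCT when it lies on the opposite strand and is bound by the macrophage regulators PU.1 and Spi-C, and the MAF half-site TGCTGA.
C1qb: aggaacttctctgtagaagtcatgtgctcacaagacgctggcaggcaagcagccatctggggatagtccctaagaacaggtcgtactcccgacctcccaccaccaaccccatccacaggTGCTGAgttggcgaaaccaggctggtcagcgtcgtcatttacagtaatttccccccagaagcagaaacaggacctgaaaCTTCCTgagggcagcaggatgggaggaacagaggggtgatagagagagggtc
C1qc: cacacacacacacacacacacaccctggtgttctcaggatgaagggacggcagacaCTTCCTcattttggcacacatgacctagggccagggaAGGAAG
Spic: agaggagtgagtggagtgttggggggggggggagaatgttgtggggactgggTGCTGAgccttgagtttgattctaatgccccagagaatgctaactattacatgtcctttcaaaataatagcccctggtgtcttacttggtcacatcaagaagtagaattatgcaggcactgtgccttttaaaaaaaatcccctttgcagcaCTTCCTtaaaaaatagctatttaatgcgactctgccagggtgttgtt
The C1qb window holds a MAF half-site 131 to 126 bases and an ETS core 52 to 47 bases before the start. The C1qc run, from which 151 bases that GENCODE counts as exon were left out, holds ETS cores 194 to 189 and 157 to 152 bases before the RefSeq start and no MAF half-site. In the Spic window, the MAF half-site lies 198 to 193 bases and the ETS core 47 to 42 bases before the start. Searched on both strands, the ETS core was present in 29.5% of the 32851 promoter windows of the table and the MAF half-site in 16.1%. The kappaB motif, present in 1.41% of the windows, was in none of the 4, and the Cd68 window had none of the 3 motifs. A match is a run of letters and not a bound site. The Spic window lies in an intron of a longer GENCODE transcript.

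**Figure D1:**
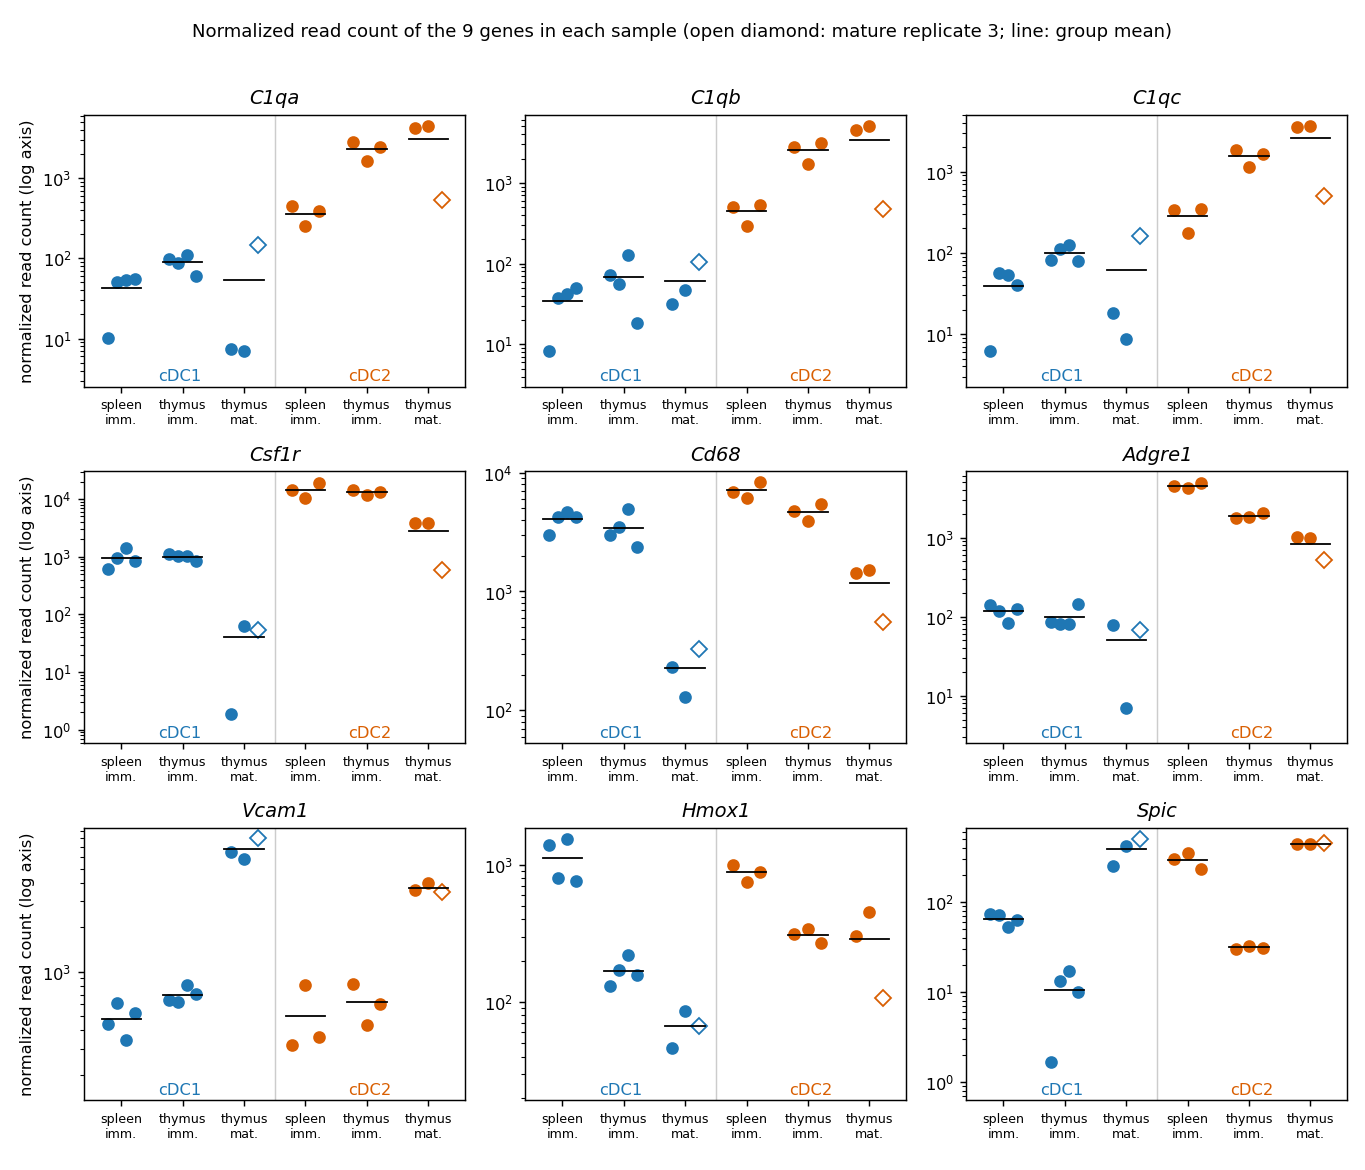
Normalized read count (log axis) of each of the 9 genes in the 20 samples, with the cDC1 groups on the left and the cDC2 groups on the right of each panel. Points are samples, lines are group means and open diamonds are replicate 3 of the mature groups. The C1q genes, Csf1r and Adgre1 lie above cDC1 in cDC2, with 1 low diamond in mature thymic cDC2. Vcam1 and Spic rise in both mature groups, and their diamonds lie near the other points, as the lowest or highest of each group.

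The C1q genes were highest in thymic cDC2. In immature thymic cDC2, C1qa had 2797, 1614 and 2456 normalized reads in replicates 1, 2 and 3, a mean of 2289 ± 609 (SD, n = 3), against 444, 251 and 385 in immature splenic cDC2. These groups did not overlap, and the thymic mean was 6.36 times the splenic. Mature thymic cDC2 held both the highest and an outlying low value, 4196, 4445 and 532, so that its mean of 3058 ± 2191 (SD, n = 3) overlapped the immature group. In cDC1 the levels were low throughout: 10.3, 51.3, 53.6 and 55.3 in immature splenic, 98.0, 88.3, 109 and 59.6 in immature thymic, and 7.37, 6.93 and 146 in mature thymic cDC1. The order of the group means was mature thymic cDC2, immature thymic cDC2, immature splenic cDC2, immature thymic cDC1, mature thymic cDC1 and immature splenic cDC1, and neighbours overlapped at the top of this order and among the last 3.

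C1qb followed the same order. It had 2753, 1717 and 3148 normalized reads in immature thymic, 501, 296 and 533 in immature splenic and 4526, 5056 and 480.3 in mature thymic cDC2. The 3 immature thymic libraries lay above every splenic one, and the third mature library lay below all immature thymic ones and within the splenic range. C1qc had 1863, 1126 and 1634 in immature thymic, 337, 176 and 342 in immature splenic and 3544, 3640.1 and 501 in mature thymic cDC2. The thymic mean of C1qc was 5.41 times and that of C1qb 5.73 times the splenic mean in immature cDC2. In cDC1, C1qb ranged from 8.24 to 128 and C1qc from 6.18 to 159 over all samples, so that no cDC1 library reached the lowest immature splenic cDC2 library.

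The shares of the chains varied far less than their sum. Of all C1q reads in immature thymic cDC2, C1qa took 33.9% to 37.7%, C1qb 37.1% to 43.5% and C1qc 22.6% to 25.3%. In mature thymic cDC2 the shares of C1qa, C1qb and C1qc were 34.2%, 36.9% and 28.9% in replicate 1 and 33.8%, 38.5% and 27.7% in replicate 2. Replicate 3 gave 35.2%, 31.7% and 33.1%. Thus the sum fell from 12267 and 13141 normalized reads in replicates 1 and 2 to 1513 in replicate 3, on 15978, 18880 and 1928 reads, while C1qc passed C1qb in share in replicate 3 alone of the 3. The C1qc share was higher in all mature than in all immature thymic cDC2 libraries. The shares in mature thymic cDC1 replicates 1 and 2 rest on 31 and 36 reads in all and cannot be read as proportions.

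Csf1r (chromosome 18, 61100598 to 61132149, plus strand) was highest in the immature cDC2 of both tissues and did not follow C1q. Its exons overlap those of Hmgxb3 on the opposite strand, and since the strand setting of the counting is not given in the sources used here, reads of the pair may not be separated. It had 14512, 10295 and 18938 normalized reads in immature splenic and 14458, 11628 and 13397 in immature thymic cDC2, groups that overlapped fully. Mature thymic cDC2 had 3826, 3892 and 595, all below the immature libraries, and its mean was 4.75-fold lower than the immature thymic mean (the fitted log2 difference was -2.66, and -1.76 without replicate 3). Immature cDC1 had 607 to 1417 in spleen and 835 to 1101 in thymus, and the third mature cDC2 library fell below both. Mature thymic cDC1 had 1.84, 64.1 and 54.4, that is 1, 37 and 68 reads, the lowest of all groups. Since C1qa fell with Csf1r in replicate 3, their ratio there (0.894) stayed near the 1.10 and 1.14 of replicates 1 and 2, in contrast with 0.139 to 0.193 in immature thymic and 0.0203 to 0.0306 in immature splenic cDC2.

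Cd68 (chromosome 11, 69664213 to 69666153, minus strand) encodes a glycoprotein of late endosomes and lysosomes and was read in every group. It had 6862, 6072 and 8294 normalized reads in immature splenic and 4762, 3906 and 5391 in immature thymic cDC2, so that the splenic libraries lay above the thymic ones. Mature thymic cDC2 had 1437, 1527 and 556, all below the immature libraries. Immature cDC1 ranged from 2362 to 4926 over both tissues and overlapped immature thymic cDC2, while mature thymic cDC1 was lowest at 230.4, 129.98 and 326.

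Adgre1 (chromosome 17, 57358691 to 57483527, plus strand), the gene of F4/80, was the member that set the subsets furthest apart in spleen. It had 4486, 4192 and 4923 normalized reads in immature splenic cDC2 against 83.1 to 142 in immature splenic cDC1, a ratio of means of 38.8. Immature thymic cDC2 had 1777, 1805 and 2039 and mature thymic cDC2 1012, 974 and 516, so that the 3 cDC2 groups stepped down without overlap. The third mature library was again the lowest of its group, by a smaller margin than for C1q. In mature thymic cDC1 the values were 79.3, 6.93 and 67.2, all below the 81.1 to 142 of immature thymic cDC1, replicate 2 by far the most.

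Vcam1 (chromosome 3, 116109949 to 116129688, minus strand), which encodes an adhesion molecule for α4 integrins, was higher in mature than in immature thymic cells of both subsets. Its exons overlap those of Gm43109 on the opposite strand. Mature thymic cDC2 had 3587, 3978 and 3483 normalized reads against 825, 435 and 603 in immature thymic cDC2, and mature thymic cDC1 had 6452, 5774 and 7992 against 621 to 808 in immature thymic cDC1. The mature groups did not overlap the immature ones, and the mature cDC1 mean was 1.83 times the mature cDC2 mean, again without overlap. In the 4 immature groups the values ran from 318 to 825, and neighbouring groups overlapped. The third mature cDC2 library did not stand apart here.

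Hmox1 (chromosome 8, 75093621 to 75100589, plus strand), the gene of heme oxygenase 1, was higher in spleen than in thymus. Immature splenic cDC2 had 999, 748 and 888 normalized reads and immature splenic cDC1 760 to 1551, against 314, 340 and 268 in immature thymic cDC2 and 131 to 220.0 in immature thymic cDC1. Neither splenic group overlapped its thymic counterpart, and the splenic mean was 2.86 times the thymic in cDC2 and 6.64 times in cDC1. Mature thymic cDC2 had 304, 455 and 107 and overlapped the immature group, while mature thymic cDC1 was lowest at 46.1, 86.7 and 67.2. Spic (chromosome 10, 88674772 to 88685015, minus strand), which encodes the ETS-family factor Spi-C, was lower in thymus than in spleen among immature cells and high again in mature thymic cells. Immature thymic cDC2 had 29.9, 32.8 and 31.2, below the 303, 346 and 230 of immature splenic cDC2, whereas mature thymic cDC2 had 437, 436 and 455. Mature thymic cDC1 had 253, 419 and 497 against 1.69 to 17.2 in immature thymic cDC1, the latter on 2 to 16 reads. The mature groups overlapped each other and neither overlapped an immature thymic group, and the third mature cDC2 library was the highest of its group for Spic.

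Levels of different genes can be compared per kilobase of exon. In immature thymic cDC2 the mean normalized read count per kilobase was 3728 for Cd68, 2334 for C1qb, 2279 for Csf1r, 2201 for C1qa, 798 for C1qc and 579 for Adgre1, with 176 for Hmox1, 70.02 for Vcam1 and 8.14 for Spic. In mature thymic cDC2 the means of the C1q chains came first, with 3083 for C1qb, 2940.1 for C1qa and 1327 for C1qc, ahead of Cd68 (934), Csf1r (480.0) and Vcam1 (415), and Adgre1 (258), Hmox1 (165) and Spic (115) were lowest. This order was that of replicates 1 and 2, and in replicate 3 the values per kilobase were 512 for C1qa, 443 for Cd68, 441 for C1qb, 393 for Vcam1 and 259 for C1qc. C1qc, although lower per kilobase than the other chains in both groups, has the longest exons of them (1931 bases against 1040 and 1088), and its reads may be spread over exons that not every transcript holds.

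**Figure D2:**
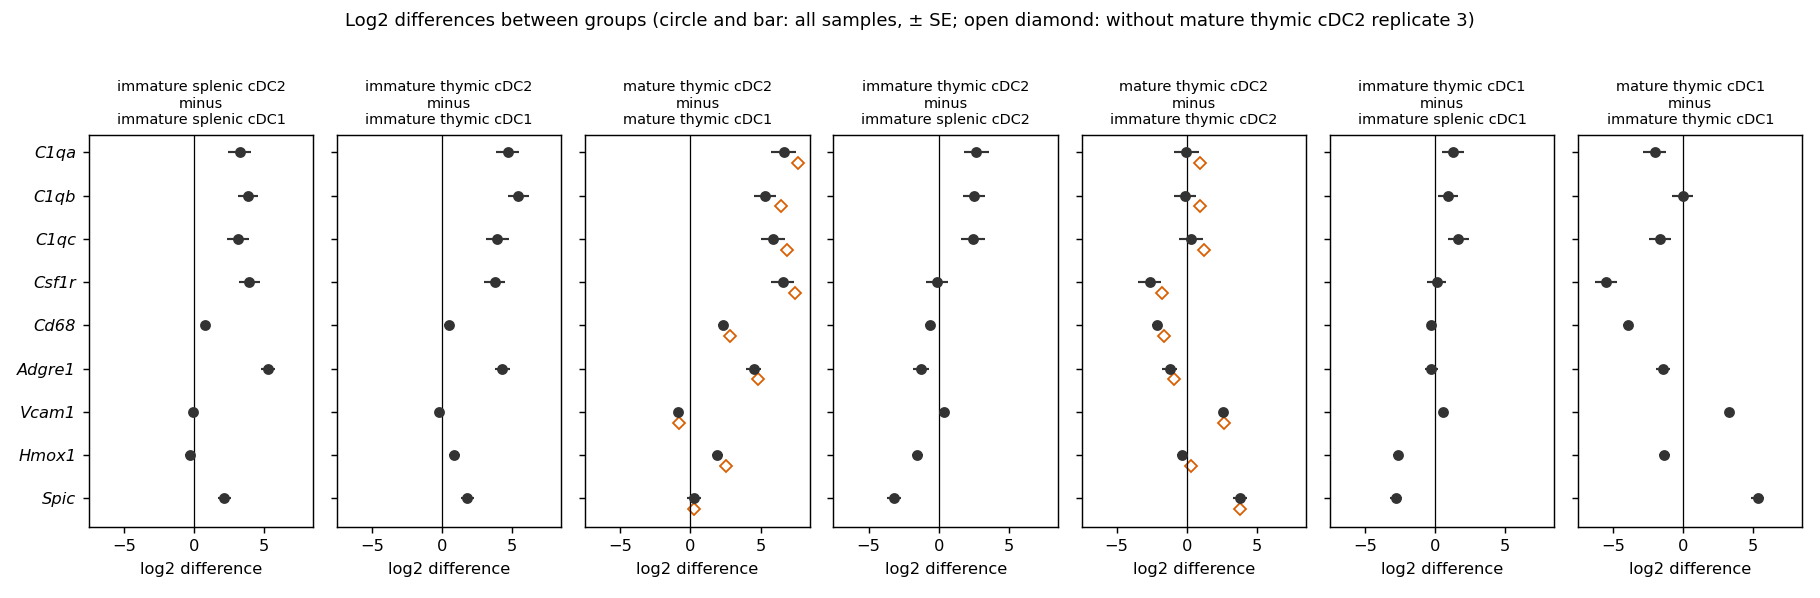
Log2 difference between groups for each of the 9 genes in the 7 comparisons (circles, with bars of 1 SE from the fit over 20 samples), on the scale of log2(normalized read count + 1). Open diamonds in the comparisons of mature thymic cDC2 leave out its replicate 3. The C1q genes, Csf1r and Adgre1 lie far to the right in the comparisons of cDC2 with cDC1, and the diamonds move the C1q genes to about 1 in the comparison of mature with immature thymic cDC2.

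For the comparisons between groups, log2(normalized read count + 1) was fitted with limma over the 20 samples, and a gene was called at a Benjamini-Hochberg adjusted p under 0.1 with a log2 difference beyond 1 in either direction. All 9 genes were among the 14966 that reached 10 normalized reads in 3 or more samples. Because the 9 were chosen from these values, their counts are set beside the share of all tested genes and nothing is read from them. In immature cDC2 against cDC1, 6 of the 9 were called higher and 0 lower in spleen (9.90% and 6.71% of all genes), and 6 higher and 0 lower in thymus (11.0% and 5.43%). The 6 were the same in both tissues, the C1q chains, Csf1r, Adgre1 and Spic, with log2 differences of 2.15 (Spic) to 5.29 (Adgre1) in spleen and 1.78 (Spic) to 5.44 (C1qb) in thymus. Cd68, Vcam1 and Hmox1 had differences between -0.29 and 0.87 in these comparisons. In mature thymic cells, 7 were called higher in cDC2 than in cDC1 and 0 lower (14.6% and 4.36% of all genes), with differences of 6.65 ± 0.89 (SE) for C1qa and 6.57 ± 0.81 for Csf1r. Without mature thymic cDC2 replicate 3, the counts were the same and these differences 7.66 ± 0.89 and 7.47 ± 0.81. In this comparison of mature cells the median over all genes was itself 0.14, and 0.18 without replicate 3.

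Between the tissues, the C1q chains were higher and Spic and Hmox1 lower in immature thymic cDC2. Of the 9, 3 were called higher and 2 lower in immature thymic than in immature splenic cDC2 (8.30% and 5.87% of all genes). The higher ones were the C1q chains, with log2 differences of 2.67 ± 0.89 (SE) for C1qa, 2.52 ± 0.79 for C1qb and 2.46 ± 0.87 for C1qc. The lower ones were Spic at -3.17 ± 0.49 and Hmox1 at -1.51 ± 0.40, and Adgre1, although its groups did not overlap, missed the threshold at -1.27 ± 0.55. The lanes differ here, since immature splenic cDC2 has 2 libraries in lane 5 and 1 in lane 8 and immature thymic cDC2 has 1 and 2. Within lane 8 alone the splenic library had 385 normalized reads of C1qa against 1614 and 2456 in thymus, and 230 of Spic against 32.8 and 31.2. In cDC1, 0 were called higher and 2 lower in thymus than in spleen (4.26% and 4.49% of all genes), again Spic at -2.80 ± 0.43 and Hmox1 at -2.68 ± 0.34.

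With maturation of thymic cDC2, 2 of the 9 were called higher and 3 lower (18.6% and 17.0% of all genes). Spic differed by 3.78 ± 0.49 (SE) and Vcam1 by 2.61 ± 0.29, and Csf1r by -2.66 ± 0.81, Cd68 by -2.12 ± 0.35 and Adgre1 by -1.23 ± 0.55. The C1q chains showed no single direction: -0.05 ± 0.89 for C1qa, -0.14 ± 0.79 for C1qb and 0.30 ± 0.87 for C1qc. Without replicate 3 of mature thymic cDC2 these became 0.95 ± 0.89, 0.96 ± 0.71 and 1.25 ± 0.88, none of them called, while Csf1r became -1.76 ± 0.81, Hmox1 moved from -0.32 to 0.28, and Adgre1 at -0.91 ± 0.61 was called no more. Vcam1 at 2.65 and Spic at 3.76 hardly moved. In thymic cDC1, 2 were called higher and 6 lower with maturation (21.3% and 24.5% of all genes), Spic at 5.32 ± 0.46 and Vcam1 at 3.27 ± 0.27 against Csf1r at -5.51 ± 0.76 and Cd68 at -3.95 ± 0.32. C1qa at -2.04 ± 0.84 and C1qc at -1.66 ± 0.82 were among the lower ones, in a group where replicate 3 had more reads of them than replicates 1 and 2 together.

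**Figure D3:**
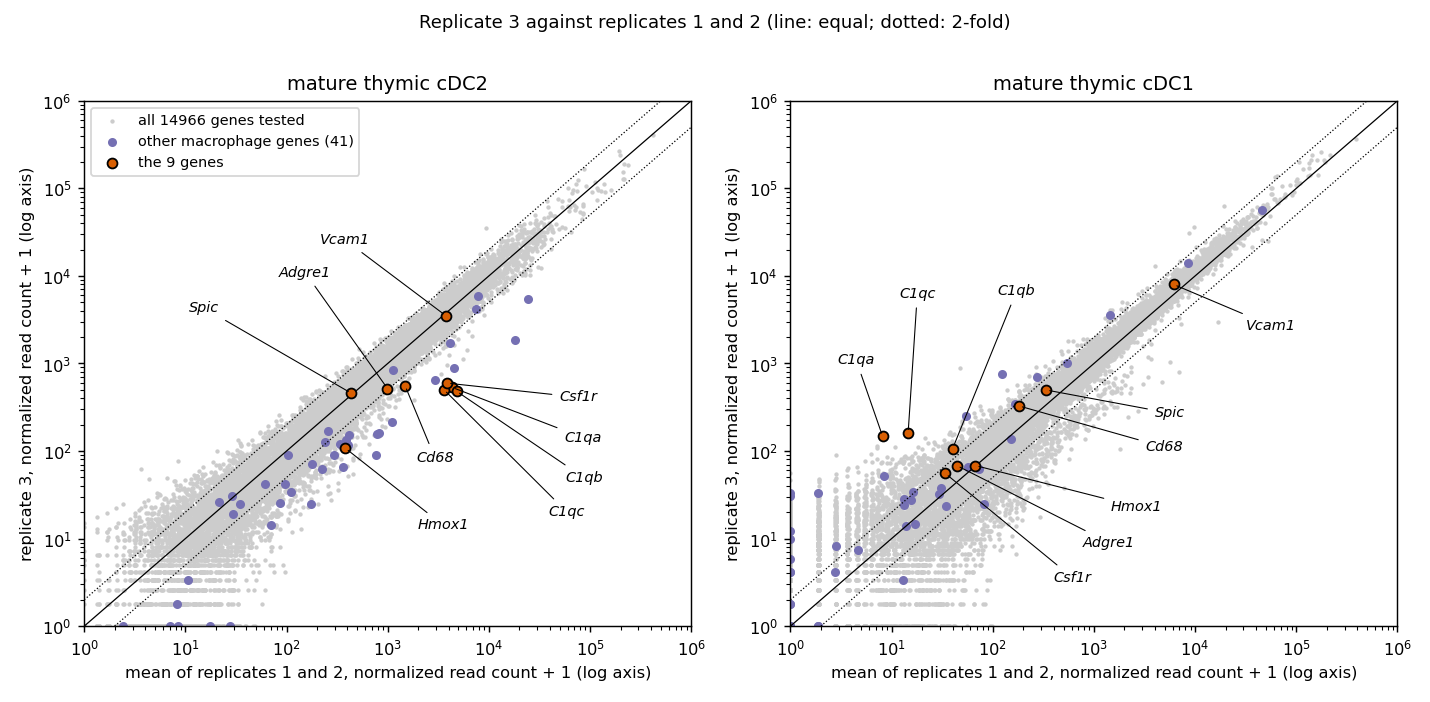
Replicate 3 against the mean of replicates 1 and 2 in mature thymic cDC2 (left) and mature thymic cDC1 (right), as normalized read count + 1 on log axes. Grey points are the 14966 tested genes, violet points 41 other macrophage genes and orange points the 9 genes; the solid line marks equality and the dotted lines a 2-fold difference. The C1q genes and Csf1r lie together well under the line on the left, with Spic and Vcam1 on it, and C1qa and C1qc lie above the line on the right.

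The third mature thymic cDC2 library differed from the first and second by gene and not by one factor. C1qb was 9.96-fold, C1qa 8.11-fold, C1qc 7.16-fold and Csf1r 6.48-fold lower in replicate 3 than the mean of replicates 1 and 2, with 1 added to each value here and in the ratios that follow. Hmox1 was 3.53-fold, Cd68 2.66-fold and Adgre1 1.92-fold lower, whereas Vcam1 stood at 92.1% and Spic at 104% of that mean, without the added 1. Hence 6 of the 9 were more than 2-fold lower and 0 more than 2-fold higher, beside 13.2% and 4.06% of all tested genes. Over all genes the median log2 ratio was -0.08, with 5th and 95th percentiles of -1.98 and 0.92, and the ratio of C1qb, -3.32, was under-run by 1.28% of genes, that of Csf1r, -2.70, by 2.47%. The spread of the log2 values over the 3 libraries was 1.74 (SD) for C1qa, 1.92 for C1qb, 1.64 for C1qc and 1.56 for Csf1r, against 0.10 for Vcam1 and 0.03 for Spic. In immature thymic cDC2 the same spread was 0.41, 0.46 and 0.38 for the chains and 0.16 for Csf1r.

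The mature thymic cDC1 library with the same pool label went the other way. C1qa had 182 reads there against 4 and 4 in replicates 1 and 2, C1qc 199 against 10 and 5, and C1qb 132 against 17 and 27, ratios of 18.0, 11.0 and 2.66 in normalized reads (with 1 added) that rest on few reads in the first and second libraries. The other 6 genes were 1.01 to 1.81 times the mean of replicates 1 and 2. Thus 3 of the 9 were more than 2-fold higher and 0 more than 2-fold lower, beside 11.8% and 10.4% of all genes. Even so, the summed C1q level of this library, 410 normalized reads, stayed below the 1513 of the mature cDC2 library with the same pool label. Of the further macrophage genes described next, 17 of 41 were more than 2-fold higher and 2 more than 2-fold lower in this cDC1 library (median log2 ratio 0.85, all genes 0.13).

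Other genes known from macrophages were also low in replicate 3. A list of 44 further macrophage genes in the tables, of which 41 were tested, had a median log2 ratio of -1.70 in that library, with 30 of 41 more than 2-fold lower and 0 more than 2-fold higher. Apoe, the lipid carrier apolipoprotein E, had 18657, 17151 and 1872 normalized reads in replicates 1, 2 and 3. Apoe, the scavenger receptor gene Msr1 (315, 328 and 35.3), which is on no list, and the lectin gene Cd209a (187, 215 and 23.5), which is on the list of cDC2 markers and not of macrophages, were among the 10 genes that fell furthest in replicate 3 and were singled out after their values were seen. Lyz2, the lysozyme gene, was low too, with 21264, 27931 and 5445. Some macrophage genes did not, among them Timd4, a receptor for phosphatidylserine on dying cells, with 104, 101 and 88.7, and Lgmn, a lysosomal protease gene, with 7469, 8101 and 5962.

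The remaining lists gave the following values. Among 17 tested complement genes outside the C1q chains, 9 were more than 2-fold lower in replicate 3 (median log2 ratio -1.45), and among 13 monocyte genes 7 were (median -1.11). The counts were 4 of 10 for cDC2 markers (median -0.80), 3 of 9 for cDC1 markers (median -0.67) and 5 of 26 for heme and iron genes (median -0.35). None of 9 general dendritic cell markers and none of 10 maturation markers was more than 2-fold lower, with medians of -0.03 and -0.27. Sirpa had 8425, 8398 and 5415 normalized reads, Flt3 17353, 16086 and 19126 and Ccr7 92491, 115572 and 91722. Of these, Sirpa was lower in replicate 3, and other cDC2 markers fell further, as Cd209a did. The 10 macrophage-defining markers summed to 1550.0, 1757 and 410 in the same libraries, with 7 of the 9 tested more than 2-fold lower (median -1.84). The T-lineage markers summed to 844, 1281 and 919, the thymic epithelial markers to 4930, 3912 and 4192 and the monocyte markers to 4748, 7216 and 2982. What these lists have to do with the low C1q values was not tested.

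**Figure D4:**
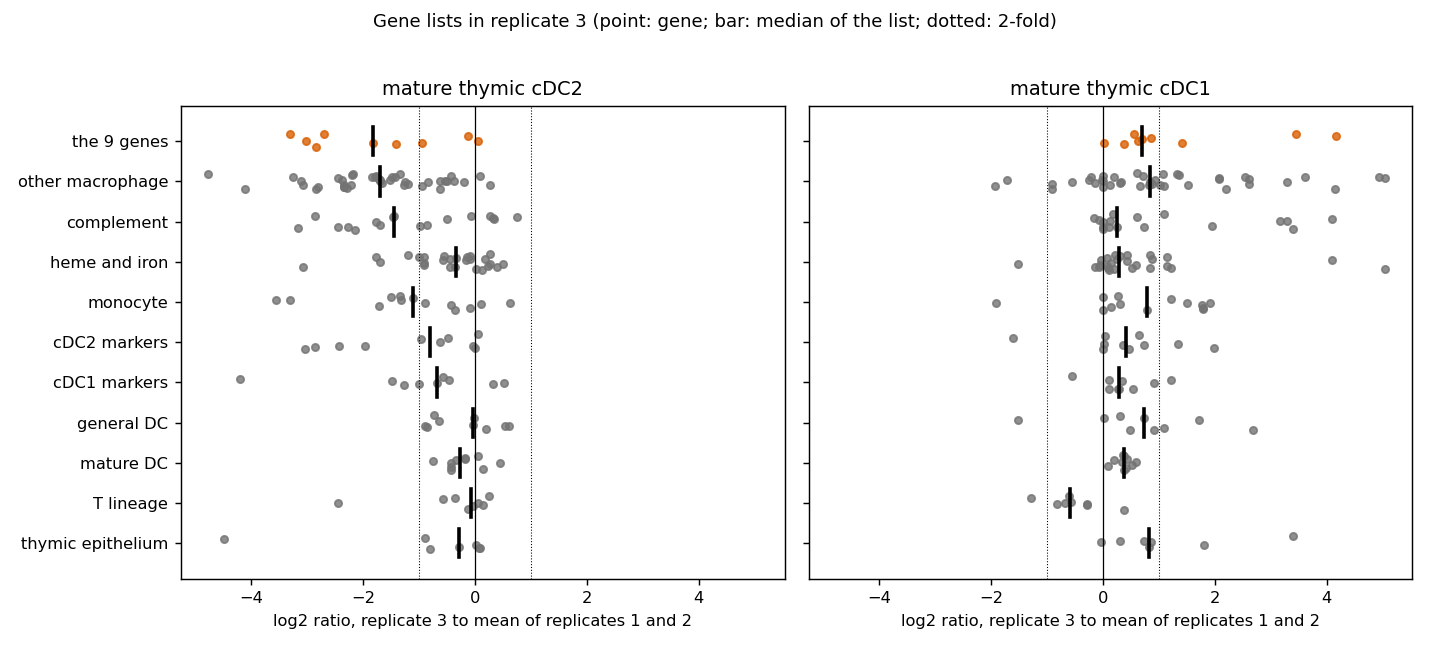
Log2 ratio of replicate 3 to the mean of replicates 1 and 2 for the genes of 11 lists in mature thymic cDC2 (left) and mature thymic cDC1 (right). Points are genes, thick bars list medians and dotted lines a 2-fold difference. The medians of the 9 genes (-1.82) and of the other macrophage genes (-1.70) lie farthest to the left of the plotted lists in cDC2, and the maturation and general dendritic cell markers lie near 0.

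Wider gene sets from the other comparisons were set beside these lists. Of the 1482 genes called higher in immature splenic cDC2 than cDC1, 23.5% were more than 2-fold lower in replicate 3, against 17.8% of the 1004 called lower. Genes called lower in mature than in immature thymic cDC1 were more than 2-fold lower in replicate 3 in 22.2% of 3664 cases, against 7.01% of 3182 for those called higher. These shares exceed the 13.2% over all genes in 3 of the 4 sets, next to 73.2% for the macrophage list. Higher in replicate 3, among genes of at least 100 normalized reads there, were first Rgs9, a regulator of G-protein signals (28.4, 36.2 and 133), the small RNA gene Gm24060, and mt-Rnr2, the mitochondrial large ribosomal RNA (8370, 10289 and 34991). The next were Gm17066, Snap91, Spo11, Efcab7, 1700109H08Rik, Spry1 and Armcx5, none of them a macrophage gene of the lists.

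The further macrophage genes were not chosen for their values one by one and were tested with limma over all genes, although the list was drawn up with earlier results of these data known. Between immature cDC2 and cDC1, 29 of the 41 were higher and 3 lower in thymus (median log2 difference 3.26, all genes 0.01) and 21 higher and 3 lower in spleen (median 1.89), where lane 8 alone called 13. The largest in thymus were Adgre4, an adhesion receptor related to F4/80, at 7.54 ± 0.65 (SE, limma adjusted p = 2.49e-08), Siglec1, a sialic acid receptor of macrophages, at 6.75 ± 0.76 (adjusted p = 9.89e-07), the lectin gene Clec4n at 6.42 ± 0.73 (adjusted p = 1.03e-06) and the phospholipid transfer gene Pltp at 6.08 ± 0.49 (adjusted p = 8.54e-09). In mature cells, 32 were higher and 2 lower in cDC2 (median 3.66), led by the fractalkine receptor gene Cx3cr1 at 7.48 ± 0.54 (limma adjusted p = 1.00e-08). Without mature thymic cDC2 replicate 3 the counts were again 32 and 2 (median 4.46). Summed over the 44 list genes, immature cells went the other way from these counts by gene, and such a sum is weighted towards the genes with the most reads. In thymus the sums were 137554 to 157028 normalized reads in immature cDC1 against 64335 to 76891 in immature cDC2. In spleen they were 117452 to 157228 against 55315 to 69332. Of the 9 tested macrophage-defining markers, 7 were higher in cDC2 than in cDC1 in immature thymic and 9 in mature thymic cells (8 without replicate 3), and 0 were lower. Their part in the higher values of the members was not tested.

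Between immature thymic and splenic cDC2 the list was divided, with 10 higher and 9 lower in thymus (median 0.32, all genes 0.02), and 6 called in lane 8 alone. Higher were the anaphylatoxin receptor gene C3ar1, with 232, 110.5 and 187 normalized reads in thymus against 8.24, 6.25 and 1.63 in spleen (log2 difference 4.92 ± 1.08, limma adjusted p = 0.00247), Gpnmb, a glycoprotein of lysosome-rich phagocytes, with 164, 89.7 and 109 against 4.58, 4.37 and 8.15, and Trem2, a lipid-sensing receptor, with 44.8, 15.4 and 31.2 against 1.83, 0 and 1.63. Timd4 had 531, 898 and 827 against 45.8, 56.9 and 53.8 (3.79 ± 0.91, limma adjusted p = 0.00484). All 3 splenic libraries of each of these genes lay below all thymic ones. The fitted differences of C3ar1, Gpnmb and Trem2 rest on at most 10 reads per splenic library and depend on the added 1, and lane 8 alone no longer called Gpnmb, Trem2 and Timd4. Adgre4 went the other way, with 504, 561 and 467 in thymus against 5858, 6616 and 5268 in spleen.

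With maturation of thymic cDC2, 2 of the 41 were higher and 13 lower (median -0.81), and without replicate 3, 5 were higher and 10 lower (median -0.12, with 18.3% of all genes higher and 15.5% lower). The hemoglobin scavenger receptor gene Cd163 went from 307, 372 and 212 normalized reads in immature to 10.7, 4.18 and 0 in mature cells (log2 difference -6.21 ± 0.65, limma adjusted p = 1.43e-07) and the mannose receptor gene Mrc1 from 2582, 2270 and 1944 to 254, 228 and 125 (-3.53 ± 0.51, adjusted p = 8.87e-06). Both were low in every mature library, unlike C1q. Apoe, by contrast, had 4875, 2691 and 3469 in immature cells against 18657, 17151 and 1872 in mature cells. Stab1, a scavenger receptor of macrophages and sinus endothelium, had 292, 170 and 171 in immature and 922, 649 and 155 in mature cells. In thymic cDC1, 4 of the 41 were higher and 17 lower with maturation (median -1.21), and 3 were higher and 11 lower in immature thymic than in immature splenic cDC1 (median -0.58), where lane 8 alone called 7.

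The partners of the members in their pathways gave further contrasts, all tested with limma. Of 17 tested complement genes, 3 were higher and 2 lower in immature thymic than in immature splenic cDC2, and 1 higher and 7 lower in mature than in immature thymic cDC2 (1 and 6 without replicate 3). C3, the central component that C1q activation leads to, had 4571, 2506 and 4042 normalized reads in immature thymic against 1213, 752 and 1721 in immature splenic cDC2, and 5292, 5782 and 1138 in mature thymic cDC2. The alternative pathway gene Cfb had 113, 24.8 and 84.1 in immature thymic against 0.915, 1.25 and 8.15 in splenic cDC2 (4.21 ± 0.87, limma adjusted p = 0.0015). Lane 8 alone no longer called Cfb.

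Of the ligands of the Csf1r product, Il34 had at most 1.97 normalized reads in any sample, and Csf1 had 139, 120 and 62.3 in immature and 752, 718 and 622 in mature thymic cDC2 (2.77 ± 0.30, limma adjusted p = 2.26e-07). The ligand gene Csf1 thus rose where the receptor gene fell. Mature thymic cDC1 had the highest Csf1 level, 1394, 1522 and 1677, together with the lowest Csf1r. In the wider list of 18 tested genes around Csf1r, 4 were higher and 7 lower in mature than in immature thymic cDC2 (4 and 6 without replicate 3), the lower ones including the transcription factor genes Fli1 (-3.81 ± 0.41, limma adjusted p = 2.17e-07) and Runx1 (-2.86 ± 0.20, adjusted p = 4.34e-10).

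Around Cd68, 4 of 16 tested genes of endosomes and lysosomes were higher and 3 lower with maturation of thymic cDC2 (5 and 3 without replicate 3). Cd63, a tetraspanin of late endosomes, had 1350.3, 890 and 1450 normalized reads in immature and 16703, 17998 and 14442 in mature cells (3.76 ± 0.29, limma adjusted p = 1.48e-09), and Lamp1, a major lysosomal membrane gene, 6600.2, 6550.0 and 6886 against 39979, 38627 and 40581 (2.57 ± 0.12, adjusted p = 2.52e-12). Both rose while Cd68 fell. Around Vcam1, 3 of 8 tested integrin and adhesion genes were higher and 3 lower with maturation, Icam1 among the higher ones (2.12 ± 0.18, limma adjusted p = 5.10e-09). Itga4, the α4 integrin chain that binds Vcam-1, had 8470, 10339 and 5232 in immature thymic against 34371, 49754 and 33264 in immature splenic cDC2 (-2.32 ± 0.35, limma adjusted p = 5.78e-05).

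Around Hmox1, 4 of 26 tested heme and iron genes were higher and 6 lower with maturation of thymic cDC2 (5 and 5 without replicate 3), and 2 were higher and 2 lower in immature thymic than in immature splenic cDC2. Slc11a1, an iron transporter of phagosomes, had 104, 97.1 and 81.0 in immature thymic against 1228, 552 and 1118 in immature splenic cDC2 (-3.27 ± 0.36, limma adjusted p = 1.18e-06), in the same direction as Hmox1. The transferrin receptor gene Tfrc went from 3390, 4654 and 3439 in immature to 131, 212 and 202 in mature thymic cDC2 (-4.41 ± 0.29, limma adjusted p = 1.89e-10). Gclc, for glutathione synthesis and a target of the oxidative stress factor Nrf2 as Hmox1 is, rose (2.49 ± 0.18, limma adjusted p = 5.38e-10) where Hmox1 gave 304, 455 and 107 against 314, 340 and 268.

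Over the 20 samples, which share tissues, sorts and lanes, the log2 levels of the C1q chains correlated with each other at a Pearson r of 0.95 to 0.99. Adgre1 had an r of 0.749 and Csf1r of 0.677 with their mean, Cd68 of 0.279, Spic of 0.168, Hmox1 of 0.087 and Vcam1 of 0.037. Within the 9 cDC2 samples the relation of C1qa to Csf1r was -0.08, while Csf1r and Cd68 had an r of 0.964 and Cd68 and Vcam1 of -0.90. Within the cDC2 samples, Adgre1 had an r of 0.856 with Csf1r and 0.947 with Cd68, and Hmox1 of 0.733 to 0.881 with these 3 genes. Over the 20 samples Adgre1 was closer to C1qa (0.762) than to Cd68 (0.574). Within the 9 cDC2 samples, however, the r of Adgre1 was negative with C1qa (-0.547), C1qb (-0.473) and C1qc (-0.601). Of 10215 other genes with a mean of at least 100 over the samples, those most like C1q over the 20 samples included Timp2 (0.961), Cmklr1 (0.959), Alas1 (0.948), Stab1 (0.946), Tmem86a (0.933), Smox (0.931), Cst7 (0.927), Capg (0.923) and C3 (0.921). Timp2, an inhibitor of metalloproteases, had 970, 894 and 187 normalized reads in mature thymic cDC2, and Cmklr1, the chemerin receptor gene, 417, 486 and 81.6.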

How the data were processed

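RNA of sorted, pooled C57BL/6 cDCs was sequenced in 21 libraries. Reads were aligned by the authors with STAR 2.6 to mm10 and counted per Ensembl gene with HTSeq-count after stranded mRNA library preparation (submitters' processing notes and the study's methods); the Ensembl release and the strand setting are not given in the sources used here. The deposited values are a signal per gene, which the authors made by dividing read counts by DESeq2 1.24.0 size factors. Dividing by the smallest step of each library returned whole reads for 100.0% of the values (tolerance 0.0001).

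The 9 genes and all gene lists were chosen with earlier results of these data known. Splenic cDC1 replicates 4 and 5 were summed. Differences were fitted on log2(value + 1) with limma 3.58.1 (trended empirical Bayes, 6 groups, R 4.3.3) over the 14966 genes at 10 or more in 3 or more samples, tested two-sided with Benjamini-Hochberg adjustment (called under 0.1 and beyond 1 in log2), and the fitting was tested on simulated data. Replicates are pools of mice, and p-values measure the spread between them, with an exception in immature cDC1. There, splenic replicate 1 and the summed sample share a pool label, and thymic replicates 3 and 4, labelled 8 and Et8, were read as sharing a label. In comparisons with these groups the p-values partly measure spread within a pool label. Of each list, up to 4 called genes with the largest absolute differences per comparison could be named, besides the 10 genes most like C1q, the 10 of at least 100 normalized reads highest in mature thymic cDC2 replicate 3 relative to the higher of replicates 1 and 2, and the neighbours of the C1q genes. Outside this rule, chosen after their values were seen and given without a test, are the genes shown for their values in replicate 3, and C3, Apoe, Stab1 and Adgre4 in the comparisons of immature thymic cDC2. Pool labels recur across groups, and the deviations of samples read as sharing a pool label from their group means had correlations of -0.15 to 0.46, some of them negative.

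Alternatives were DESeq2 1.42.0 and edgeR 4.0.16 on the whole reads, TMM scaling, added values of 8 and 0.1, no filter, each pair of groups alone, the repeated libraries kept apart, lane 8 alone, the pool as a block, and each replicate left out. Some genes are not reported here.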

Additional observations from a re-analysis of the deposited data

Results flagged for a closer look

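Of 18 sets of 4 samples that were examined for a value far from the others (9 genes in the immature cDC1 of spleen and of thymus), 2 held such a value. The rule was set at a chance of about 1 in 20. The genes were chosen from these values and the C1q chains move together, so the count cannot be held against that rate and nothing is read from it. Groups of 3 samples, mature thymic cDC2 among them, were not examined. C1qa had 10.29 normalized reads in immature splenic cDC1 replicate 1, on 10 reads, against 51.3 to 55.3 in the others, and C1qb (8.24) and C1qc (6.18) were also lowest in that library. Adgre1 had 142.5 normalized reads in immature thymic cDC1 replicate 4, against 81.1 to 86.2 in the others.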

How the results depend on the processing

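Among 251 recomputed summary values, 236 moved by less than the replicate spread, or by up to 1.5 times for counts, and 15 by more; medians near 0 changed sign within that spread. None of the gene-wise differences that were called turned its sign. In lane 8 alone, which leaves 1 immature splenic cDC2 library assumed to vary like the other groups, the other macrophage genes called fell from 19 to 6 between immature thymic and splenic cDC2, from 24 to 13 between splenic cDC2 and cDC1 and from 14 to 7 between immature thymic and splenic cDC1, and the median of the 9 genes moved from -0.11 to -0.60 and, between splenic subsets, from 3.14 to 2.80. That last median was 2.79 with 8 added to each value. For maturation of thymic cDC1 the median moved from -1.45 to -0.71 with DESeq2 and -0.53 with edgeR. For maturation of thymic cDC2, a median near 0 in the limma fit (-0.14) was 0.40 with DESeq2, 0.44 with edgeR and 0.95 without mature thymic cDC2 replicate 3. The median log2 ratio of that replicate, -1.82, was -1.88 after TMM scaling, -1.76 with 8 added, -1.50 against replicate 1 alone and -2.08 against replicate 2 alone. The cause was not tested.

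With each replicate left out in turn, the other macrophage genes called ranged from 9 to 14 between immature thymic and splenic cDC1 and from 17 to 27 for maturation of thymic cDC1, and the median of the 9 genes from 2.43 to 3.45 between splenic subsets, from -1.93 to -0.82 for maturation of thymic cDC1, from -0.74 to 0.95 for maturation of thymic cDC2 and from -0.34 to 0.10 between immature thymic and splenic cDC2. Pool labels pair only some samples. With the pool as a replicate block (correlation 0.155), the members' medians were 0.05, -0.29, 3.67, 4.42, 3.09, 0.31 and -1.34 and the other macrophage genes called 19, 15, 33, 35, 25, 13 and 21, for thymic against splenic immature cDC2, maturation of cDC2, cDC2 against cDC1 in immature thymic, mature thymic and splenic cells, thymic against splenic cDC1 and maturation of cDC1. The block ended no call of a gene named in the report. Over all genes, mature thymic cDC2 against cDC1 gave 2836 calls and 1705 in a fit of the 2 groups alone, and immature thymic against splenic cDC1 gave 1310 and 843 in lane 8 alone. Depth limits the cDC1 values most, since C1qa rests on 4 reads in each of 2 mature thymic cDC1 libraries.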

Other observations

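Lists of markers of other cell types were also read in cDC2, and some of their genes can be expressed by thymic dendritic cells themselves. Of 7 tested genes on the list for thymic epithelium, with limma 7 were higher in immature thymic than in immature splenic cDC2 (median log2 difference 3.70). The sums of that list, 3557 to 3899 normalized reads in immature and 3912 to 4930 in mature thymic cDC2 against 101 to 161 in immature splenic cDC2, rest mostly on 1 gene each. Epcam, an adhesion molecule gene, had 3391, 3443 and 3715 in immature thymic cDC2, and Aire, a regulator of tissue-restricted genes, 3978, 2807 and 3439 in mature thymic cDC2. The list also holds Prss16, a thymic protease gene that thymic cDCs can also express, with 50.2, 25.4 and 21.8 in immature and 50.7, 91.9 and 76.1 in mature thymic cDC2.

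The T-lineage markers summed to 210.3 to 318 in immature and 844 to 1281 in mature thymic cDC2, against 44.98 to 95.2 in spleen, with 4 of 8 tested genes higher in immature thymic than splenic cDC2 and 8 of 8 higher in mature than in immature thymic cDC2 (median 2.07). Neutrophil markers summed to 666 to 911 in immature thymic and 22.3 to 31.4 in mature thymic cDC2. Of the 10 genes on that list, 5 had no read in immature thymic cDC2 and 3 were tested. Against immature splenic cDC2, Cxcr2 was called higher (log2 difference 8.11 ± 0.92, SE), while Mpo (-2.23) and Ltf (0.86) were not called, so the sum does not stand for the list. Of 13 tested monocyte genes, 5 were higher and 3 lower in immature thymic than in immature splenic cDC2 (median -0.08), among the higher ones the chemokine receptor gene Ccr2, with 12282, 11607 and 10539 against 2218, 2969 and 1926. Nr4a1 was lower, with 20241, 18848 and 16907 against 89416, 60331 and 128878. With maturation of thymic cDC2, 9 of the 13 were lower and 0 higher (median -2.83, and 8 lower without replicate 3). What part cells other than cDC2 have in these values was not tested.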
